A study of Mus musculus with 4 samples.

Results

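Tiled regions at Meis1 and Meis2 were examined for RING1B and for trimethylation of histone H3 at lysine 27 (H3K27me3) in mouse forelimb buds. Their probes were taken by position, as all those whose coordinates lay in 1 interval of chromosome 2 (Meis2) and 1 of chromosome 11 (Meis1). They numbered 79 of the 473642 probes with coordinates, 36 for Meis2 and 43 for Meis1. The probes of each gene formed a single tiled region, so 2 of 25006 tiled regions are described. All chromatin came from pooled whole forelimb buds of wild-type BDF1 embryos at E10.5, fixed in 1% formaldehyde for 20 min, and went into precipitations for RING1B or for H3K27me3. Each precipitate was put on a 2-colour tiling array beside input DNA of the same tissue, and there was no other genotype, treatment or stage. The 4 arrays were numbered 1 and 2 for each antibody. Arrays of different number shared 0 probe names, and those of the same number carried the same probes, so that each gene was measured on 1 array per antibody with 0 replicates: Meis2 on array 1 and Meis1 on array 2. No test across samples was therefore possible, and no p-value is given. Errors are standard deviations over neighbouring probes or the error the scanner software gave each probe, and cover neither embryos nor precipitations.

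MEIS1 and MEIS2 are homeodomain transcription factors of the TALE class that bind DNA together with PBX partners. In the limb bud they mark the proximal part, next to the body wall, and are switched off in the distal part as the bud grows out. Retinoic acid from the flank is known to favour their expression. RING1B is the catalytic subunit of Polycomb repressive complex 1, which ubiquitinates histone H2A, and H3K27me3 is the mark set by Polycomb repressive complex 2. Both are found at many silent developmental genes. The study's title names repression of Meis2 by RING1 in early proximal-distal patterning as its subject. A whole bud holds proximal and distal cells together, and a weaker signal in all cells cannot be told apart from a stronger one in fewer cells.

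To give the sequence context in which Polycomb proteins are usually considered, the upstream part of each promoter is shown as RefSeq records it for GRCm38.p6, with CG dinucleotides in capitals. They are the 250 bases before the listed start, 5′ to 3′ on the minus strand, at chr2:116064620-116064869 for Meis2 and chr11:19018970-19019219 for Meis1. These coordinates are of GRCm38.p6 and not of the arrays, whose build the labels and headers do not state, so the place of these bases inside the tiled regions was not determined.
Meis2: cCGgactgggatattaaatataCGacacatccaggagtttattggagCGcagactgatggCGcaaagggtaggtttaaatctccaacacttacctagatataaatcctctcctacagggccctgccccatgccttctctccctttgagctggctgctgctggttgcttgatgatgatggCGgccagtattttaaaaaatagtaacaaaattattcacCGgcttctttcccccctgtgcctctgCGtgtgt
Meis1: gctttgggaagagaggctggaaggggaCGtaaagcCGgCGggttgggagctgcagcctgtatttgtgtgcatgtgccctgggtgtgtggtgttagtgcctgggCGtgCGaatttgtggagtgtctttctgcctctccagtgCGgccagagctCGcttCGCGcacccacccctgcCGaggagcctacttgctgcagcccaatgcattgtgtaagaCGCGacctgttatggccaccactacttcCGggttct
The Meis1 stretch held 13 CG dinucleotides at 59.6% G and C, and the Meis2 stretch held 7 at 47.6%. Among 32851 such stretches of the RefSeq table the median was 6 CG at 52.4% G and C. As many CG as in Meis1 occurred in 31.5% of them and as many as in Meis2 in 46.3%. Neither stretch was thus extreme in CG among listed promoters.

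The place of each region among its neighbours was checked against the RefSeq gene table of GRCm38.p6 by gene order alone. On the array, blocks of probes next to the Meis2 region stood in the places of Dph6 and BC052040 on one side and Tmco5 and Spred1 on the other. Next to the Meis1 region they stood in the places of C1d, Etaa1, Spred2 and Actr2. Distances between block centres differed from the distances between listed gene starts by 0.29 to 3.89 kb, over gaps of 191.4 to 1065.7 kb on the array. Both genes are listed on the minus strand, where the gene body lies towards lower coordinates. A long noncoding RNA overlaps each gene in the table, G630016G05Rik at Meis2 and Gm16141 at Meis1. A precipitate of double-stranded DNA does not separate it from the coding gene.

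All values below are log2 ratios of Cy5 over Cy3 from the scanner's processed signals, centred on the array median. This opposes the labels, which give Cy3 to the precipitate and Cy5 to the input on all arrays. Which dye held the precipitate was not settled from the files, and the labelled assignment would turn every sign. A window is the mean of 3 neighbouring probes kept after leaving out those not well above background in both dyes, and the top window is the highest of a region. 2-fold means 1 on the log2 scale. A stricter threshold, termed called, was the lowest value that kept regions past it in the opposite direction to at most 5 for every 100 past it. It was 2.7 for RING1B on both arrays, 2.85 for H3K27me3 on array 1 and 2.9 on array 2. Every setting with Cy5 over Cy3 had such a threshold. With Cy3 over Cy5 no value met the rule for either antibody on either array, so the directions were not alike.

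Meis2 had the higher median and top window of the pair for both antibodies. Each gene was read on its own array, so a difference between genes cannot be told apart from one between arrays. Over the 31 kept probes of Meis2 RING1B had a median of 1.78 and ranged from -0.44 to 4.52, and 30 of them were above 0. Over 32 kept probes H3K27me3 had a median of 1.5 and ranged from -0.52 to 4.08, with 29 above 0. The region spans 115754209 to 115762080 on chromosome 2 in array coordinates. Single low probes therefore stood among mostly raised ones, and no probe reached 2-fold in the opposite direction for either antibody.

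The same 3 probes formed the top window of Meis2 for both antibodies, from 115760364 to 115760784, 2430 bp from the region's centre towards higher coordinates. RING1B read 3.78, 4.52 and 3.54 there, with scanner errors of 0.41, 0.47 and 0.39. H3K27me3 read 3.15, 4.08 and 2.83 on those probes, with errors of 0.36, 0.44 and 0.34. The middle probe was the highest of the region for both, and the readings of both antibodies moved in step across the window. The window means were 3.95 ± 0.51 (SD over 3 probes) for RING1B, a ratio of 15.45, and 3.36 ± 0.65 for H3K27me3, a ratio of 10.24. Both top windows passed the called threshold, which 6.59% of regions passed for RING1B and 16.5% for H3K27me3 on array 1. That of RING1B no longer did without a filter on dim probes (4.05 against a threshold of 4.45) or with probes bright in 1 dye (4.02 against 4.5), and that of H3K27me3 no longer did with loess (2.11 against 3.5).

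**Figure D1:**
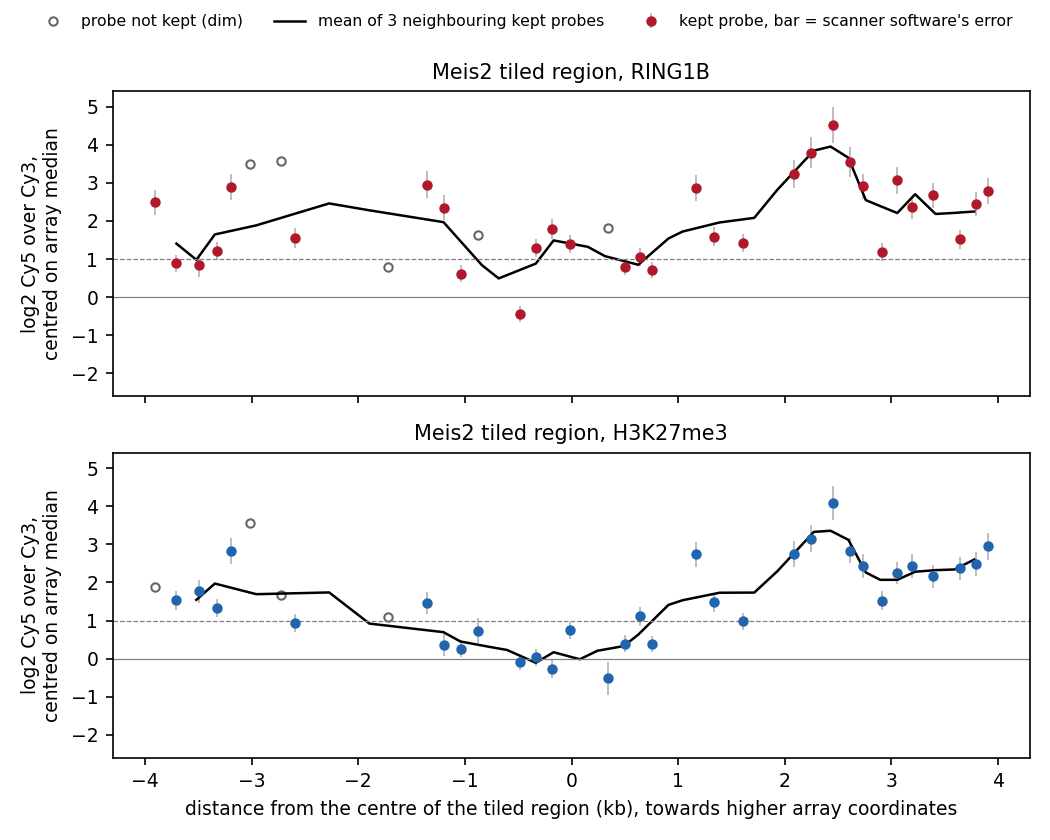
Log2 Cy5 over Cy3 of each probe in the Meis2 tiled region (y) against its distance from the region's centre in kb (x), for RING1B above and H3K27me3 below. Filled points are kept probes with the scanner software's error, open points are dim probes left out, the line is the mean of 3 neighbouring kept probes and the dashed line is 2-fold. Both antibodies peak in the same window 2430 bp right of the centre, at 3.95 and 3.36.

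At Meis2 the raised signal ran on to the high-coordinate edge of the tiled region. From 115758764 to 115762080, 15 consecutive windows spanning 3317 bp were at 2-fold or more for RING1B, and the run for H3K27me3 had the same bounds. Each region was also divided into 4 segments of equal length, numbered from low to high coordinates. In segment 4 all 12 kept probes were at 2-fold or more for each antibody, with means of 2.83 ± 0.92 (SD, 12 probes) for RING1B and 2.62 ± 0.62 for H3K27me3. Since the last probes were still raised, with RING1B at 2.78 and H3K27me3 at 2.94, the domain's outer end was not reached by the tiling. In all, 24 of 29 windows of Meis2 were at 2-fold or more for RING1B, against 15.1% of all windows on that array. For H3K27me3 19 of 30 were, against 28.4% of all windows, and 5 of 30 with loess, where the share of all windows was 21.4%. Only 4 windows of Meis2 passed the called threshold for RING1B and 3 for H3K27me3, against 4.26% and 13.6% of all windows.

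In the middle of the Meis2 region H3K27me3 was near the array median while RING1B was mostly above it. In segment 2, from 115756177 to 115758144, H3K27me3 averaged 0.41 ± 0.56 (SD, 8 probes) and 1 of the 8 reached 2-fold. RING1B averaged 1.42 ± 1.11 (SD, 7 probes) there, and 5 of the 7 reached 2-fold. The lowest window was -0.11 ± 0.16 for H3K27me3 and 0.49 ± 0.88 for RING1B. H3K27me3 in segment 2 was below segments 1 and 4 (1.68 ± 0.71 over 5 probes and 2.62 over 12) by more than the SD within any of them. For RING1B segments 1 to 3 overlapped, at 1.64, 1.42 and 1.40.

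Meis1 carried a broad, lower RING1B signal and little H3K27me3. Over its 40 kept probes RING1B had a median of 1.54 and ranged from -1.74 to 2.83, with 37 above 0. H3K27me3 had a median of 0.74 over 39 kept probes and ranged from -1.13 to 2.62, with 30 above 0. The region spans 18916287 to 18924334 on chromosome 11. For each antibody 1 probe, near the high-coordinate end, was at 2-fold or more in the opposite direction.

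The top RING1B window of Meis1 lay from 18917801 to 18918322, 2249 bp from the centre towards lower coordinates, the opposite side from that of Meis2. Its probes read 2.63, 2.53 and 2.49 for RING1B, with errors of 0.33, 0.31 and 0.31, and 1.11, 1.26 and 0.99 for H3K27me3. The window mean was 2.55 ± 0.073 for RING1B, a ratio of 5.86, and 1.12 ± 0.14 for H3K27me3. The top H3K27me3 window was another, from 18916681 to 18917169, at 1.42 ± 0.32, a ratio of 2.68, with RING1B at 2.29 ± 0.64. A window on the other side of the centre, from 18921767 to 18922359, also averaged 1.42 for H3K27me3, with an SD of 1.05, so the place of the maximum was not determined. Neither antibody had a window over its called threshold at Meis1, where 7.85% and 14.1% of regions on array 2 had one for RING1B and H3K27me3, and 5.15% and 9.21% of all windows were over it. The RING1B value of 2.55 was close under its threshold of 2.7, while the 1.42 of H3K27me3 was well under 2.9. RING1B passed with windows of 5 probes (2.53 against 2.25) and with normexp (1.89 against 0.7).

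**Figure D2:**
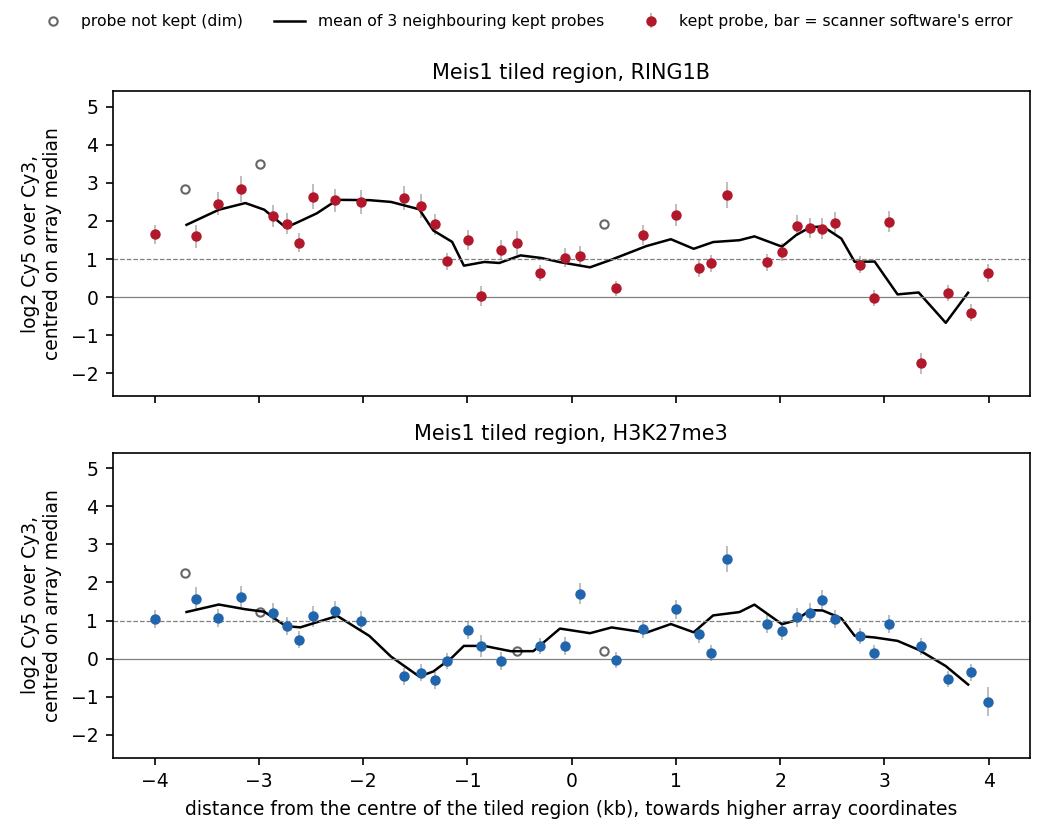
Log2 Cy5 over Cy3 of each probe in the Meis1 tiled region (y) against its distance from the region's centre in kb (x), for RING1B above and H3K27me3 below, drawn as for Meis2. RING1B stays near or above 2-fold over most of the region and is highest at low coordinates, at 2.55, while H3K27me3 peaks at 1.42 and drops below 0 from 18918671 to 18919024.

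RING1B at Meis1 was spread over much of the tiled region. Of its 38 windows, 26 were at 2-fold or more, against 16.7% of all windows on that array. The longest run held 13 windows over 3061 bp, from 18916287 to 18919347. Means of segments 1 to 4 were 2.17 ± 0.49 (SD, 10 probes), 1.37 ± 0.78 (10), 1.29 ± 0.81 (8) and 0.84 ± 1.17 (12). All 10 probes of segment 1 were at 2-fold or more and segment 4 was mixed. The run began at the first probe, so the domain's end on that side lay outside the tiling.

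With dim probes left out, H3K27me3 at Meis1 was close to the array's background share. It reached 2-fold in 12 of 37 windows, 32.4% of them, against 26.4% of all windows on the array, and in none with normexp, where 11.3% of all windows did. Without a filter on dim probes it did so in 19 of 41 windows, against 25.8% of all windows. With probes bright in 1 dye it did so in 17 of 40, against 26.2%. Its longest run held 4 windows over 1326 bp. Segment means were 1.12 ± 0.33 (10 probes), 0.022 ± 0.44 (9), 1.01 ± 0.86 (8) and 0.46 ± 0.80 (12), so the signal was lowest in segment 2 and modest on either side.

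The antibodies parted most at Meis1 in 3 probes from 18918671 to 18919024, 1463 bp below the centre. There RING1B read 2.61, 2.39 and 1.91, with errors of 0.32, 0.30 and 0.27, while H3K27me3 read -0.46, -0.37 and -0.57, with errors of 0.22, 0.23 and 0.21. All RING1B probes were raised and all H3K27me3 probes were under the array median. The means were 2.30 ± 0.36 and -0.47 ± 0.10, a difference of 2.77, and 0.0923% of the 155982 windows kept for both antibodies on that array differed as much in that direction. By its largest such difference, Meis1 stood at percentile 99.2 of 2225 regions with at least 25 windows, at 92.0 of 4098 without a filter on dim probes, and at 19.8 of 2225 with the sign turned. At Meis2 the largest difference was 1.36 (2.28 ± 0.70 against 0.92 ± 0.55), reached by 6.61% of windows on its array. That put Meis2 at percentile 66.9 of 2421 regions, and at 21.2 with the sign turned. With loess the largest difference at Meis2 was 2.40, at percentile 92.0, in a window starting at 115760364. At Meis1 it was then 2.07, at percentile 97.6. Loess thus turned the order of the genes by size, but not by percentile, and moved the place at Meis2. Each window was picked as the largest difference of its region, so its size is a description.

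Probe by probe, the antibodies moved together more at Meis2 than at Meis1. Over 30 probes of Meis2 kept for both, Pearson's r was 0.80 and Spearman's rho 0.74, and over 39 probes of Meis1 they were 0.48 and 0.56. Neighbouring probes of one region overlap in the fragments they detect and the antibodies may share input, so these are descriptions. RING1B was the higher in 20 of 30 probes of Meis2 and in 34 of 39 of Meis1. At Meis2, 18 probes were at 2-fold for both, 6 for RING1B alone and 2 for H3K27me3 alone. At Meis1 these counts were 14, 12 and 0. Arrays of the antibodies have different scales, with SDs of all ratios of 1.33 for RING1B and 1.91 for H3K27me3 on array 1 and 1.41 and 1.68 on array 2, so a difference between them is one of array ratios and not of occupancy.

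Ranks within each array avoid that difference in scale and were taken among regions with at least 25 windows. For RING1B the top window of Meis2 stood at percentile 91.6 of 3028 regions, and that of Meis1 at 79.7 of 2952. For H3K27me3 Meis2 stood at percentile 66.5 of 2926 regions and Meis1 at 47.3 of 2843. By the share of windows at 2-fold the RING1B percentiles were 95.0 and 90.7, and the H3K27me3 percentiles 69.4 and 56.2. In this direction both genes ranked higher for RING1B than for H3K27me3, and Meis2 ranked higher than Meis1 for each antibody. With the sign turned both orders reversed, at percentiles of 4.33 for Meis2 and 17.2 for Meis1 by RING1B and of 28.7 and 44.2 by H3K27me3.

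The combination of RING1B and H3K27me3 was set against other regions in several ways, with Cy5 over Cy3 as before. On array 1, 252 other regions had a RING1B top window at least as high as that of Meis2, and 1 of them had H3K27me3 as low. On array 2, 594 others were at least as high as Meis1 for RING1B, and 3 had H3K27me3 as low. With the sign turned these counts were 650 of 2516 regions for Meis2 and 675 of 2020 for Meis1. By the difference of the top windows, RING1B minus H3K27me3, Meis2 was less far out, with 0.59 at percentile 83.8, and so was Meis1, with 1.13 at percentile 92.3. Among autosomal regions alone, the counts for Meis1 with Cy5 over Cy3 were 568 and 3. Regions within 0.25 of Meis2 in RING1B numbered 59, with a median H3K27me3 top window of 5.0 and quartiles of 4.48 and 5.59, against 3.36 at Meis2. Within 0.25 of Meis1 there were 144, with a median of 3.86 and quartiles of 2.97 and 4.30, against 1.42 at Meis1. Conversely, H3K27me3 as high as at Meis2 was common with less RING1B, in 673 of 924 regions, and as high as at Meis1 in 742 of 1333. The difference between the share of windows at 2-fold for RING1B and for H3K27me3 was 19.4 percentage points at Meis2, at percentile 98.6 of 2647 regions, and 36.0 at Meis1, at percentile 99.6 of 2513. With normexp the difference at Meis2 turned to -11.7 points, at percentile 43.3, while that at Meis1 stood at percentile 99.7. With loess the difference was 55.8 points at Meis2 and 38.9 at Meis1, which turned the order of the genes. With the sign turned both differences were 0, at percentiles 41.5 and 38.4. With 1 array per antibody no test of these positions was made.

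**Figure D3:**
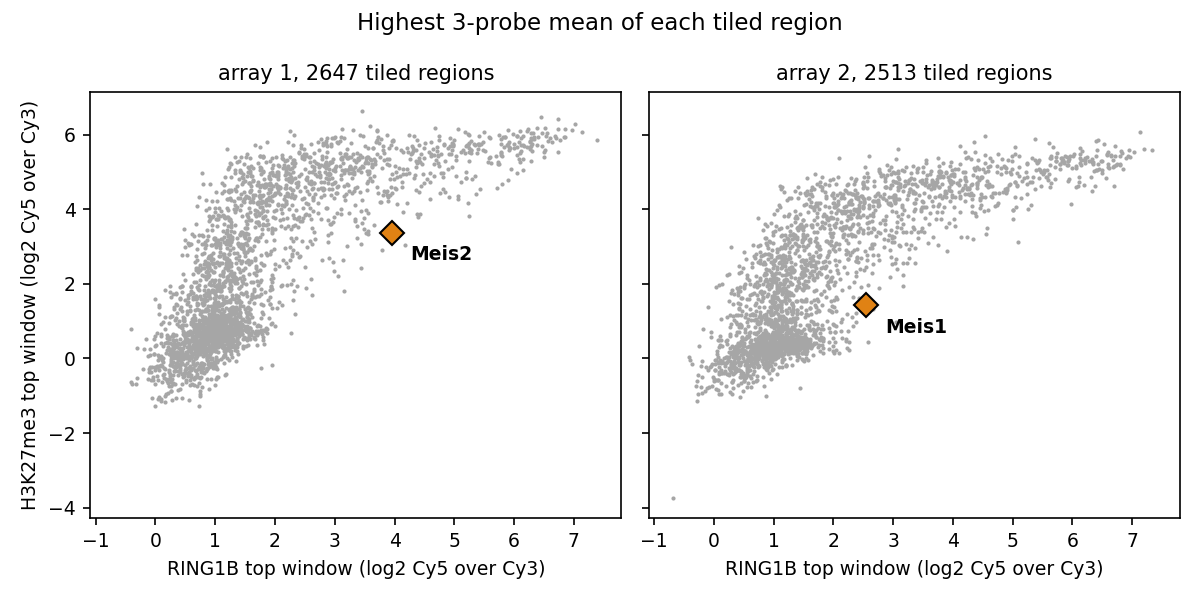
Top window for H3K27me3 (y) against that for RING1B (x), both as log2 Cy5 over Cy3, for tiled regions with at least 25 windows on array 1 (left, 2647 regions) and array 2 (right, 2513 regions). Grey points are regions and diamonds are Meis2 and Meis1, which lie at the lower right edge of the points, with 1 and 3 other regions at least as high in RING1B and as low in H3K27me3.

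The neighbouring blocks of probes were not raised in the same way. In the 4 blocks around Meis2, in the places of Dph6, BC052040, Tmco5 and Spred1, RING1B top windows were 0.64 ± 0.55, 0.35 ± 0.18, 0.024 ± 0.55 and 1.24 ± 0.31, against 3.95 at Meis2. Those of H3K27me3 were 0.11 ± 0.23, -0.11 ± 0.17, 0.66 ± 0.50 and 0.92 ± 0.15, against 3.36. Each gap exceeded the sum of the probe SDs. Around Meis1, RING1B top windows in the places of C1d, Etaa1, Spred2 and Actr2 were 0.38 ± 0.58, 1.16 ± 0.23, 1.33 ± 0.20 and 0.97 ± 0.23, against 2.55. For H3K27me3, Etaa1, Spred2 and Actr2 stood at -0.13 ± 0.61, 0.51 ± 0.36 and 0.43 ± 0.35. The block in the place of C1d, with 8 windows, reached 1.79 ± 0.13, which is above the 1.42 ± 0.32 of Meis1. Of the 8 neighbours, none passed a called threshold for either antibody. By top window, RING1B thus stood out locally at both genes, and H3K27me3 at Meis2 but not at Meis1. By block mean H3K27me3 was highest at Meis1, at 0.64 ± 0.76 (SD over probes). Means at C1d, Etaa1, Spred2 and Actr2 were -0.33 ± 1.58, -1.49 ± 1.11, -0.49 ± 0.77 and -0.94 ± 1.06. Windows at 2-fold or more for H3K27me3 made up 32.4% at Meis1, 12.5% at C1d and 0% at Etaa1, Spred2 and Actr2.

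**Figure D4:**
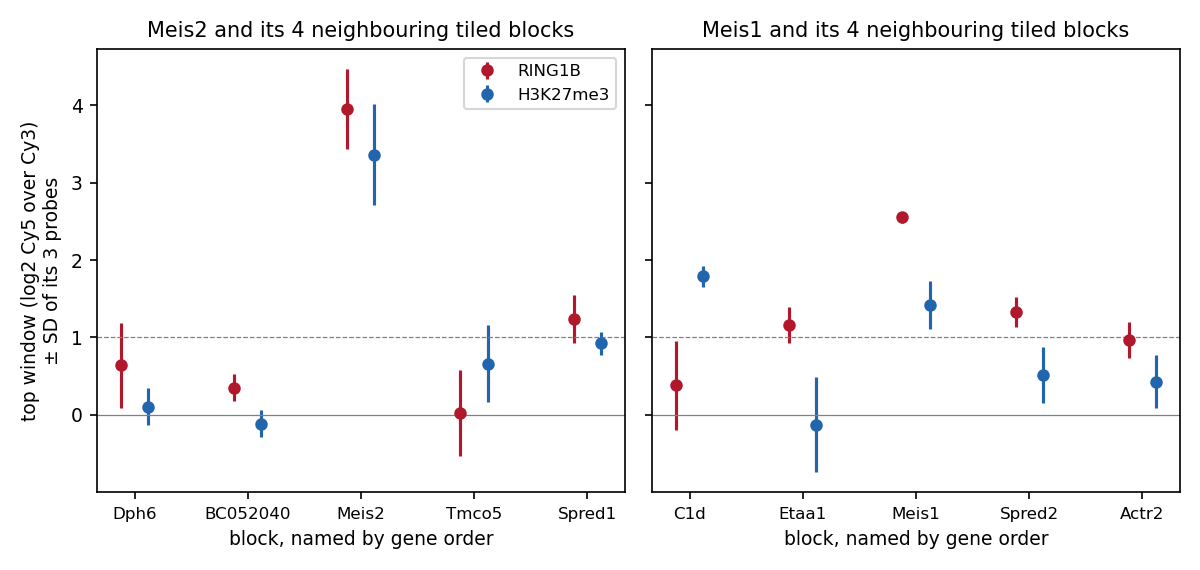
Top window as log2 Cy5 over Cy3 (y), with the SD of its 3 probes, for the tiled blocks of Meis2 (left) and Meis1 (right) and the 4 nearest blocks on the same array, named by gene order (x), with RING1B in red and H3K27me3 in blue. Meis2 stands above its neighbours for both antibodies, and Meis1 for RING1B, at 2.55, while for H3K27me3 it lies below the block in the place of C1d, at 1.79.

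The signals behind these ratios differed between the dyes. In the top window of Meis2 the mean Cy5 signal was 21056 on the RING1B array and 20344 on the H3K27me3 array, 25.7 and 16.0 times the median of kept probes. The mean Cy3 signal there was 1414 and 2043, 1.64 and 1.59 times the median. In the top RING1B window of Meis1 the mean Cy5 signal was 4003, 4.47 times the median, and the mean Cy3 signal 686, 0.74 times it. In its top H3K27me3 window these were 2110, 1.55 times, and 767, 0.69 times. High ratios at Meis2 thus went with bright Cy5, and those at Meis1 with moderately bright Cy5 and somewhat dim Cy3. The probes left out of the member regions, 16 over the 4 measurements, were all above 0, and 15 of them were dim in Cy3 alone. Left-out RING1B probes reached 3.56 at Meis2 and 3.49 at Meis1, so the filter removed high values here.

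**Figure D5:**
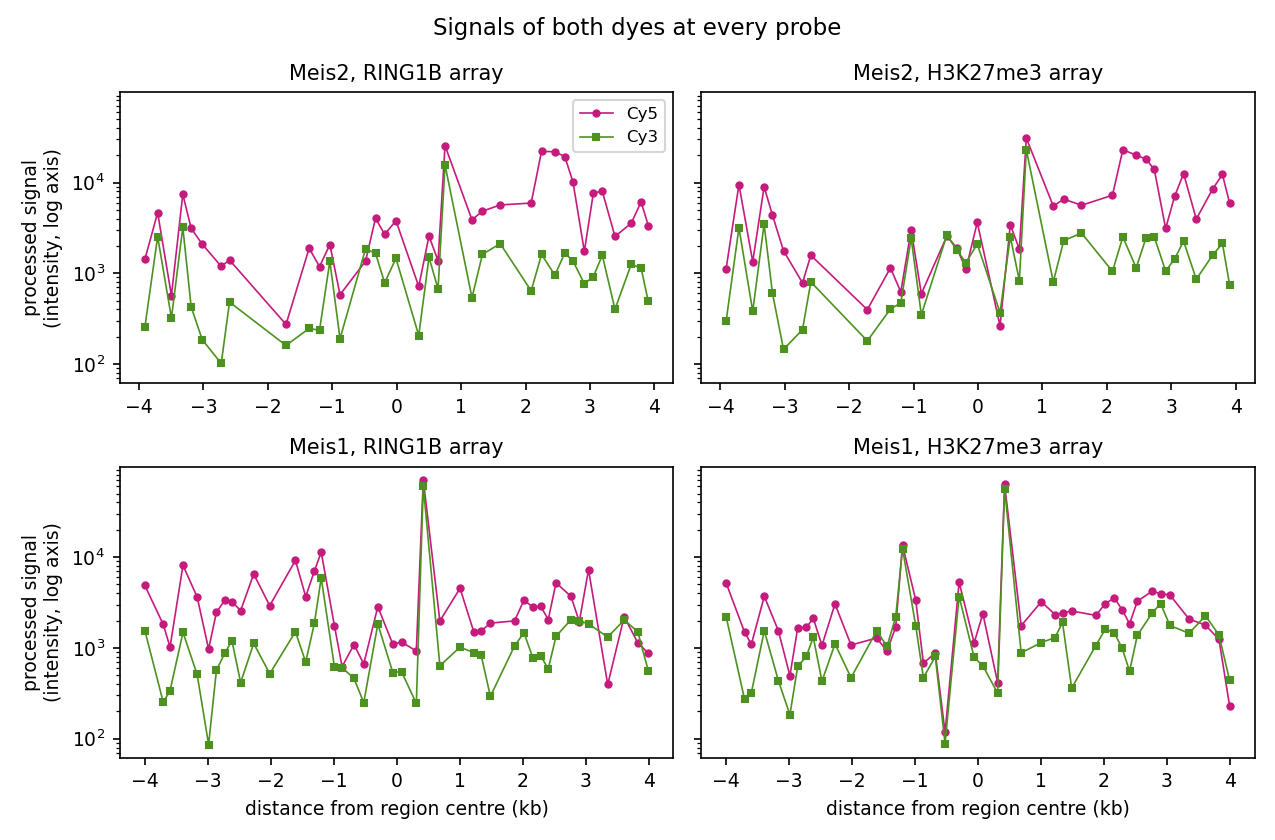
Processed signal of Cy5 and Cy3 as intensity on a log axis (y) at every probe of Meis2 (top) and Meis1 (bottom), against distance from the region's centre in kb (x), on the RING1B array (left) and the H3K27me3 array (right). A high ratio is Cy5 above Cy3 by definition, and in the top window of Meis2 the means for RING1B were 21056 for Cy5 and 1414 for Cy3.

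With the dyes as the labels give them, neither gene had an enriched window. In that direction, Cy3 over Cy5, 0 of 29 and 0 of 30 windows of Meis2 and 0 of 38 and 0 of 37 of Meis1 were at 2-fold or more for RING1B and H3K27me3. The shares of all windows were 11.4% and 23.1% on array 1 and 12.0% and 20.1% on array 2. The most extreme windows on this side were -0.49 and 0.11 at Meis2 and 0.67 and 0.68 at Meis1.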

How the data were processed

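Genomic DNA from 4 arrays was analysed, 2 per antibody. Amplification of precipitate and input used T7 RNA polymerase in 2 rounds, per the labels' protocols. Scans were read by Agilent Feature Extraction 10.1.1.1, per the file headers. Its deposited processed signals are intensity values with background subtraction, detrending and a linear dye normalization and no lowess, per the file headers. The deposited log10 ratios, Cy5 over Cy3, equal those of the processed signals within 0.001 for 99.7% to 99.9% of probes. Values of the deposited series tables are log2 ratios, of which the same shares lay within 0.001 of these ratios, not centred, with medians of -0.16 to 0.018.

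Log2 Cy5 over Cy3 was centred on the median of kept probes, between 196983 and 203495 per array, with no loess or quantile step. Probes not well above background in both dyes and outlier spots were left out. A region was a run of probes whose starts lay no more than 1000 bp apart. Windows were computed in Python 3.11.15 and alternatives with limma 3.58.1, and the window step was tested on simulated data. The number of arrays limits the precision. Blocks for the check of gene order joined probes at most 3000 bp apart and held at least 10. Members, lists and the rule naming them, the probes of 2 given intervals, were chosen with earlier results of these data known. Other limb, retinoic acid and housekeeping genes were not analysed here, because no gene coordinates of the array's build were used.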

Additional observations from a re-analysis of the deposited data

How the results depend on the processing

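Of 120 recomputed values, 81 stayed within the spread of their window, within 1.5 times their count or, for shares of regions, within the exact 95% binomial interval, 38 moved and 1 changed sign, the top RING1B window of Meis2 with the dyes turned. The order of Meis2 above Meis1 and of RING1B above H3K27me3 in top windows held in 8 of 9 settings, the exception being the turned sign. By the share of windows at 2-fold the order of the genes was less stable. With normexp RING1B had 14 of 29 windows at Meis2 and 19 of 38 at Meis1, a slightly lower share at Meis2. With loess H3K27me3 had 5 of 30 at Meis2 and 8 of 37 at Meis1, again a lower share at Meis2. The settings include the deposited values, which are nearly the same ratios. Their agreement was fixed in advance, here and among the 81 values. With Cy3 over Cy5 the top windows were 0.67 and 0.68 at Meis1 and -0.49 and 0.11 at Meis2 for RING1B and H3K27me3, and all 4 counts of windows at 2-fold were 0. With normexp, run on raw median signals in place of the planned mean signals, top windows were 1.89 and 0.24 at Meis1 and 3.39 for RING1B at Meis2, and counts were 0 for H3K27me3 at Meis1 and 14 for RING1B at Meis2. With loess top windows were 2.23 for RING1B at Meis1 and 3.08 and 2.11 at Meis2, with 5 windows for H3K27me3 at Meis2. Without a filter on dim probes Meis1 reached 3.05 and 1.81, with 19 windows for H3K27me3, and with probes bright in 1 dye 3.02 and 1.75. At 3-fold the Meis1 counts were 16 and 0, and at 1.5-fold 24 for H3K27me3. At the called threshold counts were 0 and 0 at Meis1 and 4 and 3 at Meis2. The cause of these moves was not tested. The following settings were chosen after seeing the data. Over 8 of them, the turned sign apart, other regions with RING1B as high and H3K27me3 as low were 0 to 5 of 184 to 301 at Meis2 and 0 to 8 of 475 to 608 at Meis1, and the largest excess of RING1B was 0.66 to 2.40 at Meis2 and 1.95 to 2.93 at Meis1. With the sign turned the shares of such regions were 25.8% and 33.4%, and the largest excesses 0.57 and 0.48. No paired analysis was possible because arrays 1 and 2 carry different probes and no result comes from a test. Leaving out an array was not possible, with 1 per antibody and gene.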
